A study of Oryza sativa Japonica Group with 4 samples.

Results

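The genes described here were those of rice sugar movement and sucrose turnover: SWEET sugar efflux transporters, monosaccharide and sucrose transporters, invertases, sucrose synthases and sucrose phosphate synthases. They were chosen by name alone, as every row whose gene name held one of the words SWEET, sugar transport, monosaccharide transport, sucrose, hexose transport, invertase or fructosyl transferase. The rule found 68 of 35825 rows. Of these 68, 53 reached 10 counts in 1 library or more, and these entered the comparisons. Of the other 15, 7 were at 0 in every library and 8 held at most 8 counts in any library.

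The 4 libraries of anther RNA, 1 for each genotype at each stage, came from rice, Oryza sativa ssp. japonica cultivar Tainung 67. The sterile anthers (sstl-s) came from plants with fully sterile panicles and the fertile anthers (SSTL-F) from plants with fertile panicles, and both segregated in the progeny of 1 semi-sterile line, sstl. That line arose in a T-DNA insertion collection, but the study found that sterility did not follow the insertion, so the gene at fault is not given and the fertile segregants are not a separate wild type. Plants grew in a growth chamber, and anthers were taken at late pollen mitosis (LpM) and at the earlier young microspore stage (YM). The number of plants pooled in a library is not given in the sources used here.

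Pollen has no vascular link to the plant. Sucrose that reaches the anther wall through the phloem is handed on to the locule by efflux transporters, split into glucose and fructose by invertases of the cell wall, and taken up by proton-coupled monosaccharide transporters. Inside cells, sucrose synthase, vacuolar invertase and neutral invertase split sucrose, sucrose phosphate synthase remakes it, and the carbon that is not used at once is stored as starch late in pollen development. Loss of the regulator CSA (CARBON STARVED ANTHER) is known to leave rice pollen short of sugar and starch.

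The libraries held 11076871 counts (sstl-s) and 11523243 counts (SSTL-F) at LpM, and 11559430 counts (sstl-s) and 10161675 counts (SSTL-F) at YM, so that 3 counts, taken as the lowest level that could be told from 0, stood for 0.260 to 0.295 CPM (counts scaled to a common library size). With 1 library a group there was no replicate and no test between conditions. Each log2 fold change is therefore given with a 95% interval of the read share in the pair of libraries (exact Clopper-Pearson), which covers counting error only and says nothing of the spread between plants. A gene is called higher or lower past the fold line where the log2 value is at least 1 or at most -1. Of 12 tapetum markers, 11 were matched and none was at 0. Their summed TPM (a level per transcript length that can be compared between genes) was 15886 in sstl-s and 21084 in SSTL-F at LpM, against 7263 in sstl-s and 13450 in SSTL-F at YM, a sum that was higher at LpM although the tapetum is a layer that normally breaks down before pollen matures. The sum is led by a few genes, and of the 11 markers 1 in sstl-s and 4 in SSTL-F were lower at LpM than at YM. The 2 late pollen markers summed to 46.3 TPM (sstl-s) and 182 TPM (SSTL-F) at LpM, and to 10.9 TPM (sstl-s) and 106 TPM (SSTL-F) at YM. They ran opposite ways between the stages. Os09g0381400 was higher at LpM, by a log2 value of 3.38 in sstl-s and 4.18 in SSTL-F. Os09g0388400 was lower at LpM, by -0.72 in sstl-s and -1.17 in SSTL-F, and held 97.9 TPM of the SSTL-F sum at YM. The 3 chlorophyll a/b-binding protein genes, which mark green tissue, summed to 662 TPM (sstl-s) and 396 TPM (SSTL-F) at LpM, and to 271 TPM (sstl-s) and 142 TPM (SSTL-F) at YM. Fewer cells of a type and less RNA per cell cannot be told apart in such bulk anther samples. The part of these marker differences in the results below was not tested.

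The 68 sugar genes together held 0.761% (95% exact interval 0.756% to 0.766%) of all counts in sstl-s and 0.907% (0.901% to 0.912%) in SSTL-F at LpM. At YM they held 0.440% (0.436% to 0.444%) in sstl-s and 0.587% (0.583% to 0.592%) in SSTL-F. The share was thus lower in sterile than in fertile anthers at each stage, and higher at LpM than at YM in each genotype. Sucrose synthases alone made up 75.7% (75.5% to 76.0%) of these counts in sstl-s and 76.1% (75.8% to 76.4%) in SSTL-F at LpM, and 62.7% (62.3% to 63.1%) in sstl-s and 68.7% (68.3% to 69.1%) in SSTL-F at YM, so the total followed this 1 family.

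**Figure D1:**
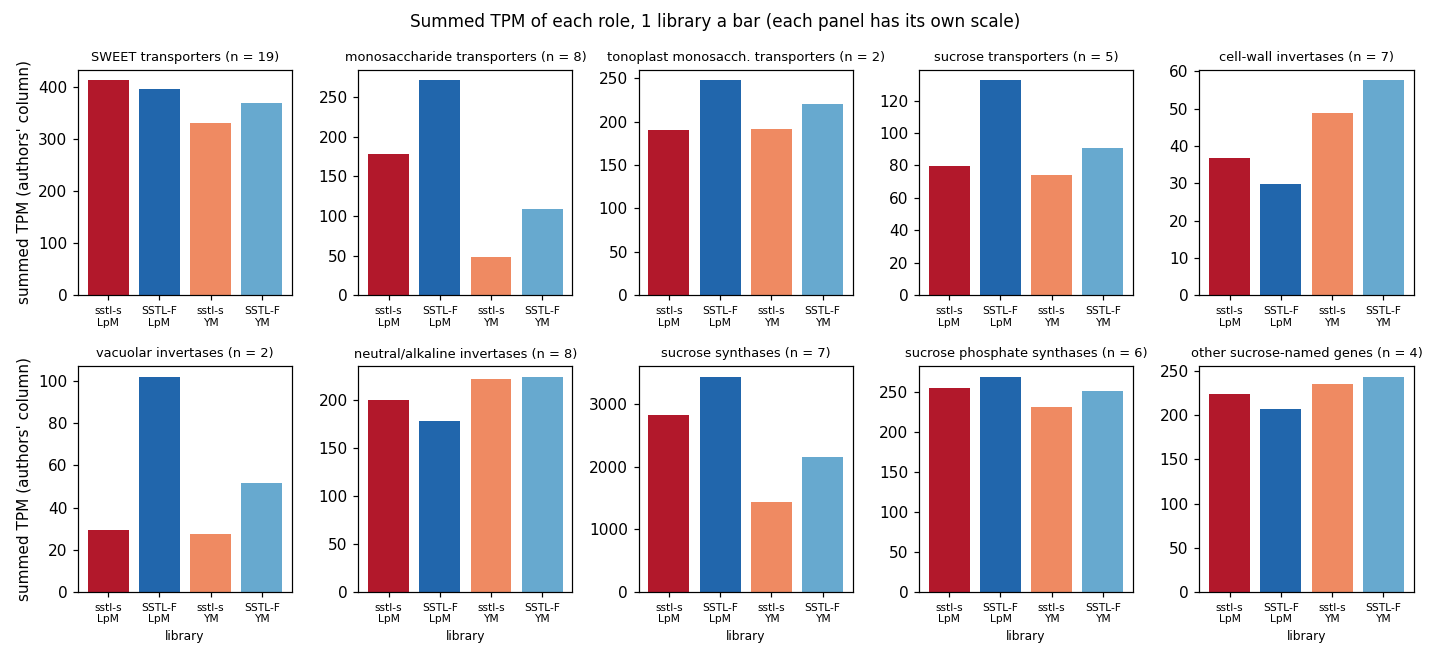
Summed TPM (vertical axis, 0 at the bottom, own scale in each panel) of each role in the 4 libraries, 1 library a bar, in the order sstl-s LpM, SSTL-F LpM, sstl-s YM and SSTL-F YM; n is the number of genes. Vacuolar invertases stood at 29.5 TPM in sstl-s and 102 TPM in SSTL-F at LpM, whereas the SWEET sum was 413 TPM in sstl-s and 396 TPM in SSTL-F.

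Compared with SSTL-F at LpM, 2 of the 53 genes lay past the fold line as higher in sstl-s, where 4.45% of all rows tested did, and 10 lay past it as lower, where 6.58% of all rows did. The median log2 fold change was -0.10 over the sugar genes and 0.01 over all 24543 rows tested. At YM, 2 genes lay past it as higher in sstl-s, where 8.21% of all rows did, and 5 as lower, where 4.24% of all rows did, with medians of -0.17 over the sugar genes and -0.03 over all rows. On the log2(RPKM + 1) scale these medians were 0.12 over the sugar genes and 0.19 over all rows at LpM, and 0.00 over the sugar genes and 0.11 over all rows at YM. Of those higher at YM, Monosaccharide transporter 7 rested on 5 counts in sstl-s and 0 in SSTL-F, and at its lower bound, 1.33-fold, it would not be among them. At both stages 3 of the 53 genes lay past the fold line, each lower in sstl-s, namely monosaccharide transporter 2, the fructosyl transferase row and SUCROSE SYNTHASE 3, where 1.3% of all rows were lower at both stages. The YM value of the fructosyl transferase row, -1.04, was short of the line under 4 other settings. Both values of SUCROSE SYNTHASE 3 were short of it on the log2(RPKM + 1) scale. Monosaccharide transporter 2 rested on few reads, 8 counts in sstl-s and 25 in SSTL-F at LpM and 10 and 19 at YM. Its YM interval reached -0.08, and its YM value was short of the line with a prior count of 5 and on the log2(RPKM + 1) scale. Counting only genes whose whole interval lay past 2-fold, 1 was higher and 5 were lower in sstl-s at LpM, where 0.941% of all rows were higher and 1.93% lower, and at YM 0 were higher and 1 was lower, where 1.77% of all rows were higher and 0.941% lower.

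Between the stages, 16 of the 53 genes were at least 2-fold higher at LpM than at YM in sstl-s, where 7.39% of all rows were, and 1 was at least 2-fold lower, where 4.51% of all rows were. In SSTL-F, 17 were at least 2-fold higher at LpM, where 12.0% of all rows were, and 2 were at least 2-fold lower, where 4.95% of all rows were. The higher genes had 15 in common, where 4.76% of all rows were higher at LpM in both genotypes. By the whole interval, 9 were higher and 0 lower at LpM in sstl-s, where 2.46% of all rows were higher and 0.97% lower, and 12 were higher and 2 lower in SSTL-F, where 4.72% of all rows were higher and 1.99% lower. The medians were 0.24 in sstl-s and 0.21 in SSTL-F over the sugar genes, and 0.00 in sstl-s and -0.02 in SSTL-F over all rows. The filter took a gene on its counts at either stage, so a gene could enter through LpM alone, among all rows as well. Of the 15 genes in common, SWEET6B, SWEET1B, SWEET7E and SUCROSE PHOSPHATE SYNTHASE 11 had under 10 counts in each YM library. So did monosaccharide transporter 3, monosaccharide transporter 4 and Monosaccharide transporter 7. How far the filter set these stage counts was not tested. The comparisons of genotype and stage share libraries, so their values are set side by side without a measure of likeness.

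**Figure D2:**
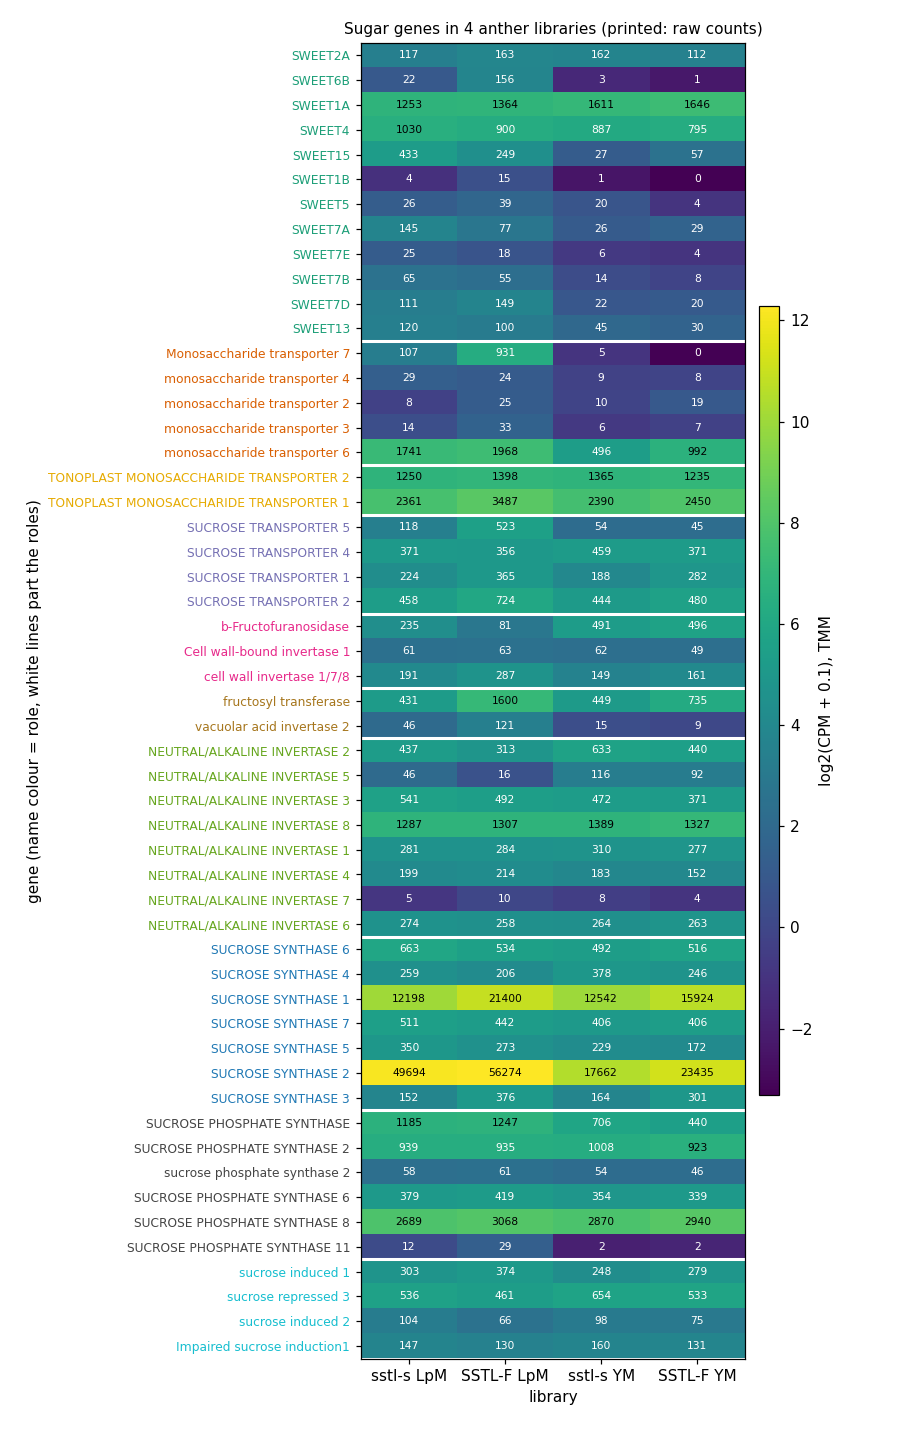
Heat map of the 53 genes that entered the comparisons (rows, name colour by role) in the 4 libraries (columns), coloured by log2(CPM + 0.1) from TMM-normalized counts, and with the raw count printed in each cell. SUCROSE SYNTHASE 2 was the brightest row, with 49694 counts in sstl-s and 56274 in SSTL-F at LpM, while Monosaccharide transporter 7 had 107 counts in sstl-s and 931 in SSTL-F at LpM, and 5 in sstl-s and 0 in SSTL-F at YM.

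SWEET proteins are carriers that let sugars cross a membrane down their gradient, and several members release sucrose or glucose from cells. The rule found 19 SWEET rows and 12 entered the comparisons. Most of these were higher at the later stage, and 8 of 12 were at least 2-fold higher at LpM than at YM in sstl-s (7.39% of all rows) and 9 of 12 in SSTL-F (12.0% of all rows), with median log2 changes of 1.75 in sstl-s and 1.82 in SSTL-F. Between the genotypes, none was at least 2-fold higher and 2 were at least 2-fold lower in sstl-s at LpM (4.45% and 6.58% of all rows), and 1 was higher and 1 lower at YM (8.21% and 4.24% of all rows). Of the 12, SWEET6B, SWEET1B and SWEET7E passed the filter on their LpM counts alone.

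The SWEET of highest level was SWEET1A, with 155 TPM in sstl-s and 163 TPM in SSTL-F at LpM and 194 TPM in sstl-s and 232 TPM in SSTL-F at YM. In each genotype 10 of the 12 had a log2 change above 0 between the stages, but SWEET1A was below 0 in each, its log2 change from YM being -0.24 (-0.35 to -0.13) in sstl-s and -0.49 (-0.59 to -0.38) in SSTL-F. SWEET4, a hexose carrier needed for filling of the rice grain, came next, with 1030 counts in sstl-s and 900 in SSTL-F at LpM and 887 in sstl-s and 795 in SSTL-F at YM. These abundant SWEET rows thus stayed within a narrow range, and what varied were rows of lower level.

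SWEET6B had 22 counts in sstl-s and 156 in SSTL-F at LpM, and 3 counts in sstl-s and 1 in SSTL-F at YM. Its LpM level was lower in sstl-s by a log2 value of -2.76 (-3.53 to -2.17). From YM to LpM its CPM was 7.97 times as high in sstl-s (2.40 to 41.6) and 134 times as high in SSTL-F (23.7 to 5335), intervals that are wide because of the few YM reads. Its neighbour SWEET6A, the next row of the files on chromosome 1, had 4 counts in SSTL-F at LpM and in sstl-s at YM and 0 in the other libraries, and reads of such neighbouring copies may be split between them in the counting.

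SWEET15, which together with another SWEET feeds the developing rice grain, differed between the genotypes in opposite directions at the stages. It had 433 counts in sstl-s and 249 in SSTL-F at LpM, a log2 value of 0.80 (0.58 to 1.04). At YM it had 27 counts in sstl-s and 57 in SSTL-F, a log2 value of -1.37 (-2.13 to -0.72). The change from YM to LpM was 4.07 (3.56 to 4.74) in sstl-s and 1.89 (1.49 to 2.35) in SSTL-F.

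Of the SWEET7 group, 7A, 7E, 7B and 7D entered the comparisons and lay within 22 rows of each other on chromosome 9, where a cell wall invertase row also lay. SWEET7A had 145 counts in sstl-s and 77 in SSTL-F at LpM (log2 value 0.91, 0.51 to 1.34), and 26 in sstl-s and 29 in SSTL-F at YM. SWEET7D ran the other way at LpM, with 111 counts in sstl-s and 149 in SSTL-F (-0.41, -0.78 to -0.05), and had 22 in sstl-s and 20 in SSTL-F at YM. SWEET7B had 65 counts in sstl-s and 55 in SSTL-F at LpM, and 14 in sstl-s and 8 in SSTL-F at YM. All 4 were at least 2-fold higher at LpM in each genotype, with log2 changes of 1.99 to 2.55 in sstl-s and 1.17 to 2.63 in SSTL-F, although the SSTL-F change of SWEET7A was 0.96 after quantile normalization. Near-identical copies may share reads here as well.

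SWEET13, known for sucrose transport, had 120 counts in sstl-s and 100 in SSTL-F at LpM, and 45 in sstl-s and 30 in SSTL-F at YM, close to the same stage change in sstl-s (1.51, 1.03 to 2.06) and SSTL-F (1.49, 0.92 to 2.16). SWEET5 differed by genotype at YM, with 20 counts in sstl-s and 4 in SSTL-F (1.78, 0.41 to 4.0), and had 26 counts in sstl-s and 39 in SSTL-F at LpM (-0.56, -1.35 to 0.18). SWEET1B was rare, with 4 counts in sstl-s and 15 in SSTL-F at LpM and 1 in sstl-s and 0 in SSTL-F at YM, which put its LpM level in SSTL-F at least 4.30-fold higher than at YM when 3 counts stood in for 0. SWEET2A had 117 counts in sstl-s and 163 in SSTL-F at LpM and 162 in sstl-s and 112 in SSTL-F at YM.

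Monosaccharide transporters of the MST group bring glucose and related sugars into the cell with protons. The rule found 8 rows, of which 5 entered the comparisons, and their summed TPM was lower in sstl-s at each stage, at 178 in sstl-s and 271 in SSTL-F at LpM and 48.1 in sstl-s and 109 in SSTL-F at YM. Summed counts gave log2 values of -0.64 (-0.73 to -0.56) at LpM and -1.28 (-1.43 to -1.13) at YM. Monosaccharide transporter 6 led the sum in all 4 libraries, with 65.5% to 96.8% of its TPM, but the genotype difference lay mostly in Monosaccharide transporter 7 at LpM and in monosaccharide transporter 6 at YM.

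At LpM Monosaccharide transporter 7 had 107 counts in sstl-s and 931 in SSTL-F, a log2 value of -3.10 (-3.42 to -2.82). At YM it had 5 counts in sstl-s and 0 in SSTL-F, so its level in SSTL-F at LpM was at least 267-fold higher than at YM. In sstl-s the log2 change between the stages was 4.27 (3.27 to 6.19). The gene was thus close to absent from each YM library and present in each LpM library, at a lower level in sstl-s. Monosaccharide transporter 8, a transporter known from rice anthers as a target of CSA, lay 2 rows before it on chromosome 1 and was at 0 in all 4 libraries, which allows a level of up to 0.260 to 0.295 CPM. Here too, reads of neighbouring copies may be shared in the counting, which was not tested.

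At YM monosaccharide transporter 6 had 496 counts in sstl-s and 992 in SSTL-F (-1.33, -1.49 to -1.17). At LpM it had 1741 counts in sstl-s and 1968 in SSTL-F (-0.17, -0.26 to -0.07), a small difference that turned to 0.06 on the log2(RPKM + 1) scale. Its change from YM to LpM was 1.93 (1.79 to 2.08) in sstl-s and 0.77 (0.66 to 0.88) in SSTL-F. A low YM level in sstl-s was therefore followed by a level near that of SSTL-F at LpM.

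Monosaccharide transporters 2, 3 and 4 were rare. Monosaccharide transporter 2 had 8 counts in sstl-s and 25 in SSTL-F at LpM (-1.52, -2.99 to -0.44), and 10 in sstl-s and 19 in SSTL-F at YM (-1.17, -2.52 to -0.08). Monosaccharide transporter 3 had 14 counts in sstl-s and 33 in SSTL-F at LpM (-1.17, -2.25 to -0.29), and 6 in sstl-s and 7 in SSTL-F at YM. Monosaccharide transporter 4 had 29 counts in sstl-s and 24 in SSTL-F at LpM, and 9 in sstl-s and 8 in SSTL-F at YM. Monosaccharide transporter 5, known from rice panicles, stayed under the filter with 2 to 8 counts a library.

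The pair of tonoplast monosaccharide transporters, which load sugars into the vacuole, moved little. TONOPLAST MONOSACCHARIDE TRANSPORTER 1 had 2361 counts in sstl-s and 3487 in SSTL-F at LpM (-0.55, -0.63 to -0.48), and 2390 in sstl-s and 2450 in SSTL-F at YM (-0.37, -0.45 to -0.28). TONOPLAST MONOSACCHARIDE TRANSPORTER 2 had 1250 counts in sstl-s and 1398 in SSTL-F at LpM, and 1365 in sstl-s and 1235 in SSTL-F at YM.

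Sucrose transporters of the SUT family move sucrose with protons across the plasma membrane or out of the vacuole. SUCROSE TRANSPORTER 5 differed most, with 118 counts in sstl-s and 523 in SSTL-F at LpM (-2.13, -2.44 to -1.85) and 54 in sstl-s and 45 in SSTL-F at YM (-0.07, -0.66 to 0.54, a direction that turned with the scaling). Its change from YM to LpM was 1.23 (0.77 to 1.74) in sstl-s and 3.30 (2.88 to 3.79) in SSTL-F. The YM levels were thus close, and the genotypes parted by LpM.

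SUCROSE TRANSPORTER 1, which has a role in phloem loading and in pollen of rice, had 224 counts in sstl-s and 365 in SSTL-F at LpM (-0.69, -0.94 to -0.45), and 188 in sstl-s and 282 in SSTL-F at YM (-0.91, -1.19 to -0.64). SUCROSE TRANSPORTER 2, the vacuolar exporter of the family and its most abundant member here, had 458 counts in sstl-s and 724 in SSTL-F at LpM (-0.65, -0.82 to -0.48), and 444 in sstl-s and 480 in SSTL-F at YM (-0.44, -0.63 to -0.25). These were lower in sstl-s at each stage, short of the fold line. SUCROSE TRANSPORTER 4 had 371 counts in sstl-s and 356 in SSTL-F at LpM, and 459 in sstl-s and 371 in SSTL-F at YM. SUCROSE TRANSPORTER 3 was at 0 in all libraries.

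**Figure D3:**
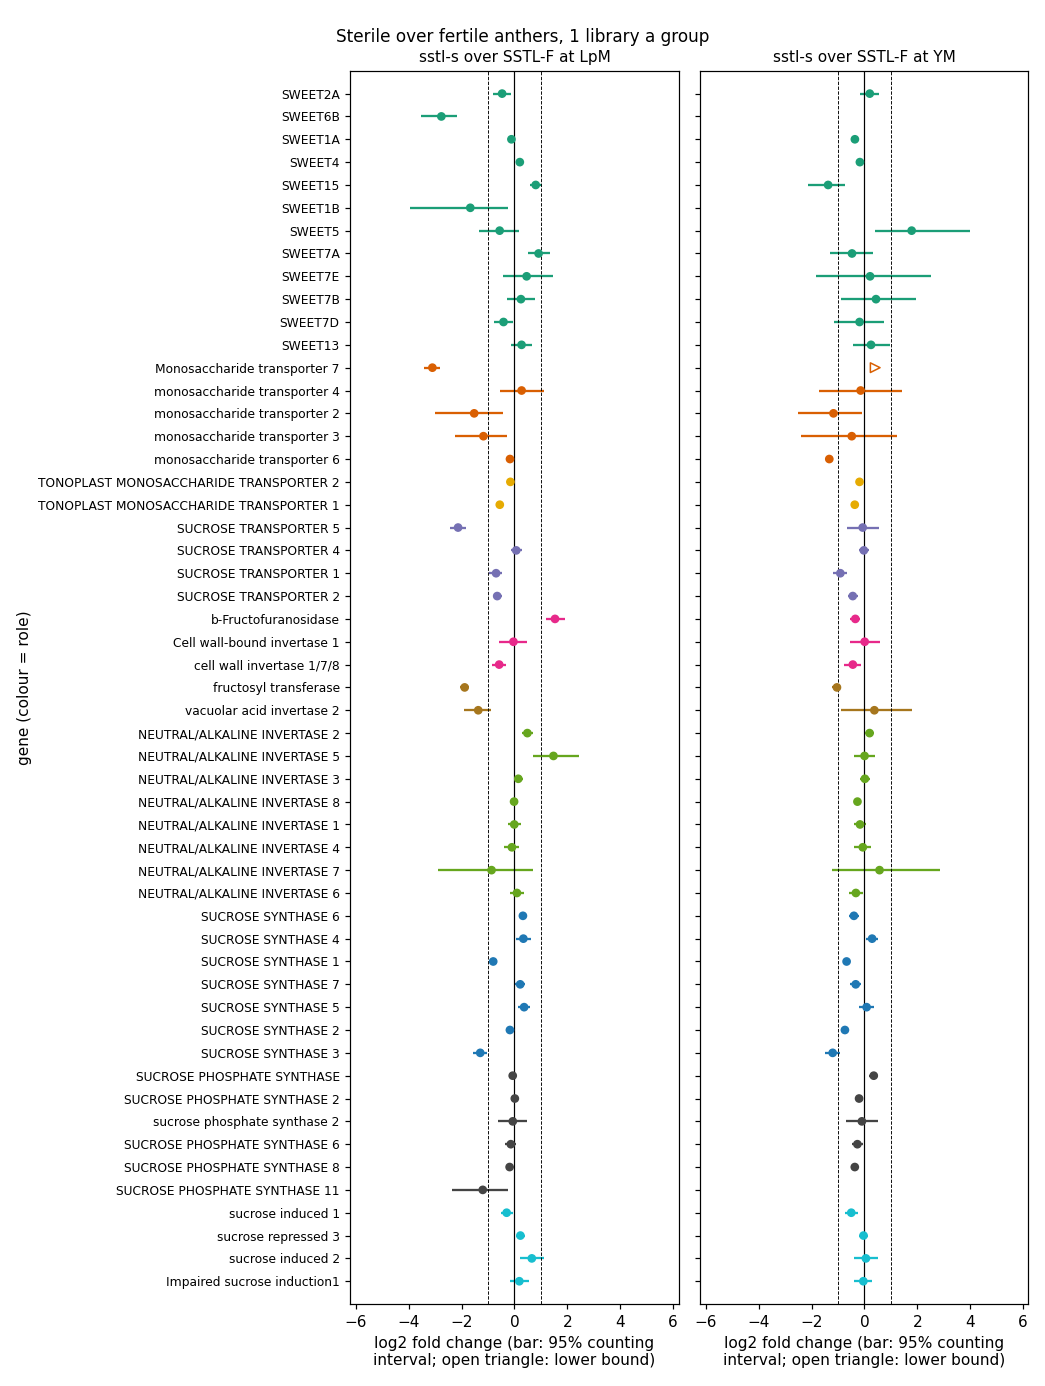
Log2 fold change of sstl-s over SSTL-F (horizontal axis) at LpM (left) and YM (right) for the 53 genes (vertical axis, colour by role), with 95% counting intervals, dashed lines at 2-fold and an open triangle for a lower bound; 3 genes with at most 3 counts in each YM library have no YM point. Monosaccharide transporter 7 (-3.10), SWEET6B (-2.76) and SUCROSE TRANSPORTER 5 (-2.13) lay farthest left at LpM, and b-Fructofuranosidase (1.53) farthest right.

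Invertases split sucrose for good, in the cell wall, in the acid vacuole, or at neutral pH inside the cell. The 7 cell wall invertase rows differed more by gene than as a group. The row named b-Fructofuranosidase, cell-wall invertase 4, cell-wall invertase 5 had 235 counts in sstl-s and 81 in SSTL-F at LpM, a log2 value of 1.53 (1.17 to 1.93). At YM it had 491 counts in sstl-s and 496 in SSTL-F (-0.34, -0.53 to -0.16). From YM to LpM its log2 change was -0.94 (-1.17 to -0.72) in sstl-s and -2.82 (-3.19 to -2.49) in SSTL-F. Of the 53 genes it alone had a whole LpM interval past the fold line on the sstl-s side.

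The cell wall invertase row on chromosome 9, named cell wall invertase 1, cell-wall invertase 7, cell-wall invertase 8, had 191 counts in sstl-s and 287 in SSTL-F at LpM (-0.58, -0.85 to -0.31), and 149 in sstl-s and 161 in SSTL-F at YM (-0.44, -0.77 to -0.11). Cell wall-bound invertase 1 on chromosome 2 had 61 counts in sstl-s and 63 in SSTL-F at LpM, and 62 in sstl-s and 49 in SSTL-F at YM. The other 4 rows held at most 5 counts in any library. With the b-Fructofuranosidase row higher in sstl-s and the chromosome 9 row lower, the summed TPM of the group was 36.8 in sstl-s and 29.8 in SSTL-F at LpM, against 48.8 in sstl-s and 57.5 in SSTL-F at YM. The leading row of the group at LpM was b-Fructofuranosidase in sstl-s and the chromosome 9 row in SSTL-F.

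The vacuolar invertases were led by the row named invertase 3, fructosyl transferase, vacuolar invertase 2, which the study lists as Os02g0106100 on chromosome 2. A fructosyl transferase moves the fructose of sucrose onto another sugar and belongs to the same enzyme family as vacuolar invertase. The study also measured this gene by q-PCR, and its primer pair, both written 5′ to 3′, is shown as the sequence the study used for this gene, and was not aligned to the row here.
forward primer: gcgtcttcctcttcaacaacg
reverse primer: gcttggttgtaggaggagtcca

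This row had 431 counts in sstl-s and 1600 in SSTL-F at LpM, a log2 value of -1.88 (-2.04 to -1.73). At YM it had 449 counts in sstl-s and 735 in SSTL-F, a log2 value of -1.04 (-1.21 to -0.87). That value was short of the fold line under 4 other settings. It was -0.90 with library size alone, -0.99 with TMM of the pair, -0.94 after quantile normalization and -0.82 on the log2(RPKM + 1) scale. Between the stages its log2 change was 0.06 (-0.13 to 0.26) in sstl-s and 0.90 (0.78 to 1.03) in SSTL-F. It was thus lower in sstl-s at each stage, and the higher LpM level of SSTL-F had no counterpart in sstl-s.

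The other vacuolar row, vacuolar acid invertase 2, vacuolar invertase 1, had 46 counts in sstl-s and 121 in SSTL-F at LpM (-1.37, -1.91 to -0.89), and 15 in sstl-s and 9 in SSTL-F at YM (0.38, -0.88 to 1.78). Its change from YM to LpM was 1.67 (0.87 to 2.68) in sstl-s and 3.41 (2.56 to 4.70) in SSTL-F. Summed over both vacuolar rows, the log2 value was -1.84 (-1.99 to -1.70) at LpM and -1.01 (-1.18 to -0.84) at YM. The vacuolar sum was lower in sstl-s at LpM, while the cell wall sum of counts was not (0.19, 0.00 to 0.38).

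The 8 neutral/alkaline invertase rows, which work in the cytosol and in organelles, all entered the comparisons. NEUTRAL/ALKALINE INVERTASE 5 had 46 counts in sstl-s and 16 in SSTL-F at LpM (1.47, 0.68 to 2.45), and 116 in sstl-s and 92 in SSTL-F at YM (0.00, -0.40 to 0.42). Its log2 change from YM to LpM was -1.20 (-1.74 to -0.71) in sstl-s and -2.67 (-3.61 to -1.97) in SSTL-F, so that, like b-Fructofuranosidase, it was lower at LpM in each genotype. NEUTRAL/ALKALINE INVERTASE 2 had 437 counts in sstl-s and 313 in SSTL-F at LpM (0.49, 0.28 to 0.70), and 633 in sstl-s and 440 in SSTL-F at YM (0.19, 0.02 to 0.37). The most abundant, NEUTRAL/ALKALINE INVERTASE 8, had 1287 counts in sstl-s and 1307 in SSTL-F at LpM, and 1389 in sstl-s and 1327 in SSTL-F at YM. The other rows of this role were short of the fold line in all 4 comparisons, the rarest of them, NEUTRAL/ALKALINE INVERTASE 7, with a value of 0.96 (-0.69 to 3.23) for LpM over YM in SSTL-F on 10 and 4 counts.

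Sucrose synthase makes UDP-glucose and fructose from sucrose in a reversible step and feeds starch and cell wall synthesis. SUCROSE SYNTHASE 2 had the highest TPM of all 68 sugar genes in each library, with 2096 TPM in sstl-s and 2281 TPM in SSTL-F at LpM, and 723 TPM in sstl-s and 1122 TPM in SSTL-F at YM. By TPM it ranked 18 among all rows in sstl-s and 16 in SSTL-F at LpM, and 86 in sstl-s and 47 in SSTL-F at YM. Its change from YM to LpM was 1.61 (1.59 to 1.64) in sstl-s and 1.05 (1.02 to 1.07) in SSTL-F, the last being 0.66 after quantile normalization. Between the genotypes it was lower in sstl-s at YM (-0.74, -0.77 to -0.71). At LpM the value was -0.17 (-0.19 to -0.15), which was 0.00 after quantile normalization and 0.06 on the log2(RPKM + 1) scale.

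SUCROSE SYNTHASE 1 came next, with 12198 counts in sstl-s and 21400 in SSTL-F at LpM (-0.80, -0.84 to -0.77), and 12542 in sstl-s and 15924 in SSTL-F at YM (-0.67, -0.71 to -0.64). Its stage change was small, at 0.08 in sstl-s (-0.05 after quantile normalization) and 0.21 in SSTL-F. The study lists a sucrose synthase 2 as Os03g0401300, an identifier of chromosome 3. By row order SUCROSE SYNTHASE 1 and SUCROSE SYNTHASE 4 lay among chromosome 3 rows and SUCROSE SYNTHASE 2 among chromosome 6 rows. The chromosome of the identifier thus goes with SUCROSE SYNTHASE 1 and SUCROSE SYNTHASE 4 and does not choose between them. SUCROSE SYNTHASE 2 goes with it by name only. Values of each are given.

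SUCROSE SYNTHASE 3 was the only member of its family past the fold line between the genotypes, and it was so at each stage. It had 152 counts in sstl-s and 376 in SSTL-F at LpM (-1.29, -1.58 to -1.02), and 164 in sstl-s and 301 in SSTL-F at YM (-1.20, -1.49 to -0.93). On the log2(RPKM + 1) scale these values were -0.91 at LpM and -0.88 at YM. Its stage changes were 0.01 in sstl-s and 0.10 in SSTL-F.

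The other members stood lower than SUCROSE SYNTHASE 1 and 2 and were higher in sstl-s at LpM, short of the fold line. SUCROSE SYNTHASE 6 had 663 counts in sstl-s and 534 in SSTL-F at LpM (0.32, 0.15 to 0.49), and 492 in sstl-s and 516 in SSTL-F at YM (-0.40, -0.58 to -0.22). SUCROSE SYNTHASE 7 had 511 counts in sstl-s and 442 in SSTL-F at LpM (0.22, 0.03 to 0.40), and 406 in sstl-s and 406 in SSTL-F at YM (-0.33, -0.53 to -0.13). SUCROSE SYNTHASE 4 had 259 counts in sstl-s and 206 in SSTL-F at LpM, and 378 in sstl-s and 246 in SSTL-F at YM. SUCROSE SYNTHASE 5 had 350 counts in sstl-s and 273 in SSTL-F at LpM, and 229 in sstl-s and 172 in SSTL-F at YM.

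Sucrose phosphate synthase makes the phosphate that is turned into sucrose. The row SUCROSE PHOSPHATE SYNTHASE, without a number, had 1185 counts in sstl-s and 1247 in SSTL-F at LpM (-0.07, -0.18 to 0.05), and 706 in sstl-s and 440 in SSTL-F at YM (0.35, 0.18 to 0.53). Its change from YM to LpM was 0.87 (0.73 to 1.0) in sstl-s and 1.28 (1.13 to 1.45) in SSTL-F. The most abundant, SUCROSE PHOSPHATE SYNTHASE 8, had 2689 counts in sstl-s and 3068 in SSTL-F at LpM, and 2870 in sstl-s and 2940 in SSTL-F at YM. SUCROSE PHOSPHATE SYNTHASE 11 was rare, with 12 counts in sstl-s and 29 in SSTL-F at LpM (-1.20, -2.37 to -0.25) and 2 in each YM library, the LpM level being 6.52 times that of YM in sstl-s (1.45 to 60.0) and 12.5 times in SSTL-F (3.16 to 108). The remaining rows of this role, 2 of them named sucrose phosphate synthase 2 on chromosomes 2 and 5, were within 2-fold in every comparison.

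Of the 4 sucrose-named rows that are neither transporter nor enzyme, none was past the fold line. The largest genotype difference among them was that of sucrose induced 2, with 104 counts in sstl-s and 66 in SSTL-F at LpM (0.66, 0.21 to 1.13), and 98 in sstl-s and 75 in SSTL-F at YM. The most abundant by TPM, sucrose repressed 3, had 536 counts in sstl-s and 461 in SSTL-F at LpM, and 654 in sstl-s and 533 in SSTL-F at YM.

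**Figure D4:**
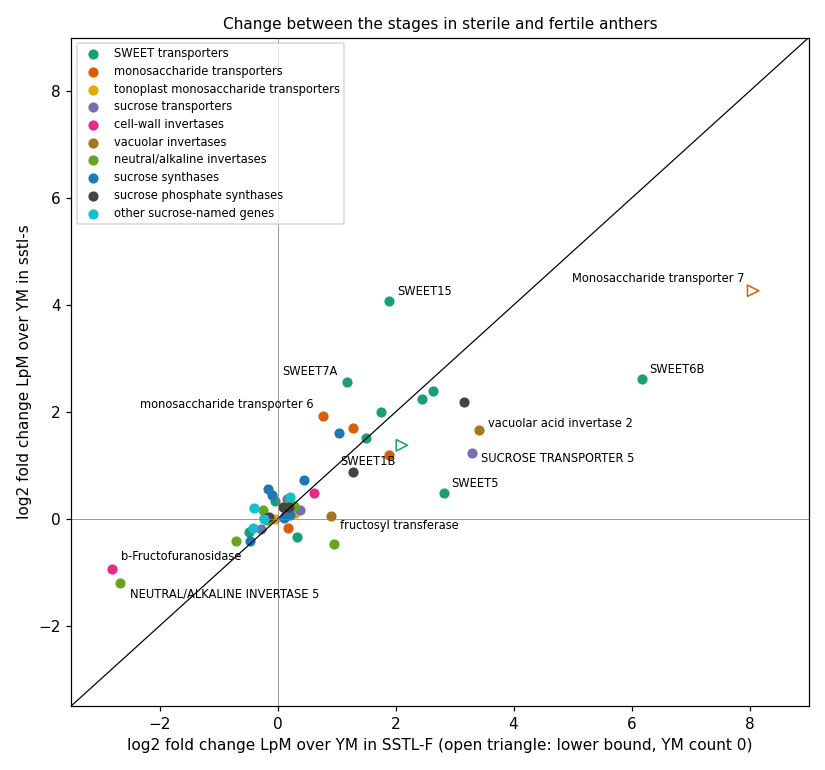
Log2 fold change of LpM over YM in SSTL-F (horizontal axis) against that in sstl-s (vertical axis) for the 53 genes, coloured by role, with the line of equal change and open triangles where the SSTL-F value is a lower bound. SUCROSE TRANSPORTER 5 (1.23 in sstl-s and 3.30 in SSTL-F) lay below the line, and SWEET15 (4.07 in sstl-s and 1.89 in SSTL-F) above it.

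Over the 53 genes the stage change in sstl-s minus that in SSTL-F had a median of 0.09, which was -0.0046 with library size alone. Leaving out SWEET1B, 5 genes lay farthest below the line of equal change. They were Monosaccharide transporter 7, SWEET6B, SWEET5, SUCROSE TRANSPORTER 5 and vacuolar acid invertase 2. Each had a higher value at LpM in both genotypes, though for SWEET5 in sstl-s the change was 0.48 (-0.40 to 1.42). That their change was larger in SSTL-F follows from how these 5 were picked. SWEET1B and Monosaccharide transporter 7 each had a YM count of 0 in SSTL-F, so their SSTL-F changes are lower bounds. Monosaccharide transporter 7 (at least 267-fold) was kept and SWEET1B (at least 4.30-fold) was not. The late pollen markers were lower in sstl-s in the same libraries, with a median log2 value of -2.64 at LpM and -2.46 at YM. The values of the 2 genes were -1.76 and -3.51 at LpM, and -0.96 and -3.95 at YM. The part of these markers in the 5 results was not tested. The tapetum markers had a median of -0.38 at LpM and -0.71 at YM. Of the 11 markers 8 were lower in sstl-s at LpM and 8 at YM, and the others were higher. OsC6 was at -1.71 (-1.74 to -1.67) at LpM but 1.31 (0.97 to 1.67) at YM. Beside the tapetum medians, monosaccharide transporter 6 was at -0.17 at LpM and -1.33 at YM. SUCROSE SYNTHASE 2 was at -0.17 at LpM and -0.74 at YM. The fructosyl transferase row was at -1.88 at LpM and -1.04 at YM. The part of the tapetum markers was not tested. The green tissue markers, with medians of 0.76 at LpM and 1.03 at YM, were higher in sstl-s at each stage. Beside them, b-Fructofuranosidase was at 1.53 at LpM but -0.34 at YM, and SWEET15 at 0.80 at LpM but -1.37 at YM. The part of the green tissue markers was not tested.

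Genes that use the sugars further on formed a list of their own. Of its 32 rows for hexokinase, fructokinase, phosphoglucomutase, the nucleotide sugar pyrophosphorylases and CSA, 31 entered the comparisons, 9 of them phosphofructokinases whose name also holds fructokinase. At LpM 1 of these was at least 2-fold higher in sstl-s and 0 were lower, and at YM 1 was higher and 2 were lower, with medians of -0.01 at LpM and -0.03 at YM. The 1 higher at LpM was HEXOKINASE-10, on 7 counts in sstl-s and 1 in SSTL-F (2.00, -0.15 to 8.31), an interval that holds 0. Over all rows 4.45% were higher and 6.58% lower at LpM, and 8.21% were higher and 4.24% lower at YM. No test of the difference from the sugar genes was made.

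HEXOKINASE-7, one of the enzymes that trap glucose as its phosphate, had 6539 counts in sstl-s and 8847 in SSTL-F at LpM (-0.43), and 2347 in sstl-s and 862 in SSTL-F at YM (1.11). HEXOKINASE-1 had 93 counts in sstl-s and 80 in SSTL-F at LpM (0.22), and 29 in sstl-s and 119 in SSTL-F at YM (-2.32). These hexokinases differed at YM in opposite directions. CSA, the regulator of sugar partitioning to pollen, had 421 counts in sstl-s and 364 in SSTL-F at LpM (0.22), and 438 in sstl-s and 339 in SSTL-F at YM (0.04). Fructokinase 1 had 2191 counts in sstl-s and 4128 in SSTL-F at LpM (-0.91), and 2179 in sstl-s and 2255 in SSTL-F at YM.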

How the data were processed

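Anthers of sstl-s and SSTL-F plants at LpM and YM gave 1 single-end Illumina library each (4 libraries). The authors deposited, per gene, a total count of reads, RPKM (reads scaled to gene length and depth) and TPM from CLC Genomics Workbench, annotated with the Rice Annotation Project database. Mapping settings, the build and strand use are not given in the sources used here. The deposited CPM column was not used, since its sums differ from the total such values should have. Counts were scaled with TMM (edgeR 4.0.16, R 4.3.3) over the 4 libraries, and log2 fold changes used a prior count of 1. The filter was at least 10 counts in at least 1 library. With 1 library a group, no test was run, and intervals are 95% exact Clopper-Pearson intervals of read shares (scipy 1.17.1). The calculation was tested on simulated data. TPM served for levels of different genes and for sums over genes. Those sums are set side by side between libraries without TMM scaling. The rule for named genes took those with a whole interval past 2-fold in a comparison, the most abundant of each role and those the study lists (26 genes). Other genes given with their counts were added to account for the members of each role, after their values were seen. Members and lists were chosen with earlier results of these data known. Rows given by identifier (26377 of 35825) could not be searched for names, since the reference table used here holds no product names for them, and no promoter or protein sequence was used. Alternatives were other scalings (library size, DESeq2 1.42.0 size factors, TMM of the pair, quantile), prior counts of 0.25 and 5, log2(RPKM + 1), other filters and member lists.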

Additional observations from a re-analysis of the deposited data

Results flagged for a closer look

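In 5 of the 53 genes the difference of sstl-s from SSTL-F had opposite signs at the stages, with each counting interval off 0, as in 4.86% of all 24543 rows tested. There is 1 library a group, so the difference between the stages was not tested. For the b-Fructofuranosidase row (cell-wall invertase 4, cell-wall invertase 5) the log2 value was 1.53 at LpM and -0.34 at YM. For SWEET15 it was 0.80 at LpM and -1.37 at YM. The other values were smaller: SWEET4 had 0.20 at LpM and -0.17 at YM (0.00 on the log2(RPKM + 1) scale), SUCROSE SYNTHASE 6 had 0.32 at LpM and -0.40 at YM, and SUCROSE SYNTHASE 7 had 0.22 at LpM and -0.33 at YM. Raw YM counts in sstl-s and SSTL-F were close for b-Fructofuranosidase (491 and 496), SUCROSE SYNTHASE 6 (492 and 516) and SUCROSE SYNTHASE 7 (406 and 406). Those of SWEET4 ran the other way (887 and 795). The YM values of these genes thus rest mostly on the scaling between libraries.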

How the results depend on the processing

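No paired analysis was possible because each group holds 1 library, and for the same reason no library could be left out. Of 46 values past the fold line among the named genes, 29 stayed past it under every scaling, prior count and unit tried, 17 did not under at least 1, mostly log2(RPKM + 1), and none turned its sign. Values that turned their sign under some setting were at most 0.21 in size (13 of 53 genes at LpM and 13 at YM between the genotypes). Library size alone moved the median of all rows to 0.11 at YM, and log2(RPKM + 1) moved it to 0.19 at LpM and 0.11 at YM. On the log2(RPKM + 1) scale, which shrinks low genes, 4 genes were lower in sstl-s at LpM, 0 higher and 1 lower at YM, and 10 higher at LpM within sstl-s. With the whole interval past 2-fold, 1 gene was higher and 5 lower in sstl-s at LpM, 0 higher and 1 lower at YM, and within sstl-s 9 were higher and 0 lower at LpM. With at least 50 counts in 1 library (45 genes), 6 were lower at LpM and 1 higher at YM in sstl-s, and 11 were higher at LpM within SSTL-F. A prior count of 0.25 gave 4 genes higher in sstl-s at YM and a prior count of 5 gave 1. Without a filter (68 genes) 4 were lower at LpM within sstl-s. Leaving out the phosphofructokinases, chosen after seeing the data, left 1 of the genes of sugar use lower in sstl-s at YM. The median over the sugar genes ranged, between the genotypes, up to 0.12 at LpM and 0.00 at YM, both on the log2(RPKM + 1) scale, and the median difference of the stage changes, 0.09, was -0.0046 with library size alone. Genes with under 10 counts in a library have wide intervals. Some of these still lay wholly past 2-fold, such as the log2 interval of SWEET6B for LpM over YM in SSTL-F (4.57 to 12.4).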
